A study of Mus musculus with 12 samples.

Results

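The 42 genes described here encode the subunits and accessory proteins of the vacuolar proton pump (V-ATPase) and the cathepsins, the main proteases of the lysosome. They were taken by symbol from the 54532 gene rows of the deposited count table, of which 22046 are annotated as protein-coding. The rule took each protein-coding symbol that begins with Atp6v0, Atp6v1, Atp6ap1 or Atp6ap2, and each symbol made of Cts and a single letter, leaving out Ctss and Ctsl. By name, 14 of the 42 belonged to V1, 9 to V0, 3 to the accessory proteins and 16 to the cathepsins.

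The RNA came from B lymphocytes of mice, sorted from 3 animals of each genotype, wild type or Tmem173-/-, and kept in 96-well plates, and its poly-A fraction was sequenced. Tmem173 encodes STING, the receptor of cyclic dinucleotides, and the treated cells were given 3'3'-cGAMP, a cyclic dinucleotide that activates STING, for 12 hours. The 12 libraries made up 4 groups of 3, namely wild type cGAMP, wild type control, Tmem173-/- cGAMP and Tmem173-/- control. No group carried any other allele or agent in the labels, and the strain, sex and age of the mice and the dose of cGAMP are not given in the sources used here. With 3 mice for the 6 libraries of a genotype, some libraries came from the same mouse, so the p-values below measure the spread between these libraries.

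The V-ATPase is a rotary motor on the membrane of endosomes and lysosomes. Its cytosolic V1 sector hydrolyses ATP, and its membrane-embedded V0 sector moves protons into the lumen. The acid it makes lets cathepsins mature and work, and in B cells these proteases cut antigen taken up through the B cell receptor into peptides for MHC class II. The transcription factor TFEB switches on many lysosomal genes by binding a short palindromic element, named CLEAR, close to their start sites.

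Promoter sequences are shown first because the CLEAR-type motif is known from many lysosomal genes, and because the genes that carry it can be set against those that changed. Promoters of 300 bases, from 250 before to 50 after the start site, came from the RefSeq table of build GRCm38.p6, which matched 31 of the 42 genes. The motif TCACGTG was searched on both strands. It contains the E-box core CACGTG, and the run TCACGTGA holds the motif on both strands at once. Capitals mark it in the stretches below, which run 5′ to 3′ on the strand of the gene from 150 bases before to 30 bases after the start.
Atp6v0b (chr4:117887300-117887479, minus strand): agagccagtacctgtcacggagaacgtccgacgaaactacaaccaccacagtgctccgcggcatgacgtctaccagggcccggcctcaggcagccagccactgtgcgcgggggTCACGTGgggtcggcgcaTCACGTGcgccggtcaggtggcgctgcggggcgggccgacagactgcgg
Atp6v0d1 (chr8:105566035-105566214, minus strand): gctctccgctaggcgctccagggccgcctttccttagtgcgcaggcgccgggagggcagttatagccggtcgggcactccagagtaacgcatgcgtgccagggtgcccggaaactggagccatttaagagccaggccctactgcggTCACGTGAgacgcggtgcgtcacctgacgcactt
Atp6v0e (chr17:26676246-26676425, plus strand): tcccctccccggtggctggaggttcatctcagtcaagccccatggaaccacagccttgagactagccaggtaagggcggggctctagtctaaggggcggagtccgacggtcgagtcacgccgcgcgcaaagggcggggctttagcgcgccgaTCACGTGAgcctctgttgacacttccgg
Atp6v1a (chr16:44139230-44139409, minus strand): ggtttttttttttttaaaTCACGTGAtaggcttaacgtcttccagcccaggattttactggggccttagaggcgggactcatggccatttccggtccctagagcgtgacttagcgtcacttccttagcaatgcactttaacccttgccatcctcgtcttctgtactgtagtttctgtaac
Ctsa (chr2:164833623-164833802, plus strand): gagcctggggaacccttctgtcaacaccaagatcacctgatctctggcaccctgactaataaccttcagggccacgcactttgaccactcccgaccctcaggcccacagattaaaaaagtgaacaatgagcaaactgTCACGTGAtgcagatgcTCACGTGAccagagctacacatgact
Ctsd (chr7:142387798-142387977, minus strand): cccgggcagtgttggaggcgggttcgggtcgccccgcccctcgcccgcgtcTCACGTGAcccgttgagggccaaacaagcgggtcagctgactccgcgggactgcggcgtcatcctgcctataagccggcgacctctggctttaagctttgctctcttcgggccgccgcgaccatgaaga

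These 6 genes were all those with TCACGTG among the 31. Across all 27025 genes of the promoter table, 4.29% held the motif. Among genes that passed the count filter it was found in 6 of 18 genes of the pump and cathepsin families, which is 33.3%, and in 7.11% of the 9802 genes with a promoter. Atp6v0d1, which encodes the V0 subunit that joins the proton ring to the V1 shaft, had it across the start site itself. Ctsa and Atp6v0b each had the motif at a pair of separate places near the start, and Atp6v1a had it farther upstream. Ctsd had it from -99 to -92 and, outside the printed stretch, from -245 to -239 bases from the start. Starts are those of RefSeq and can differ from the count table, where Ctsa begins at 164832873, Atp6v1a at 44139705 and Ctsd at 142388038. The printed stretches of Ctsa, Atp6v1a and Ctsd thus lie inside the spans that the count table gives. The shorter core CACGTG was found in 7 of the 31 genes, the seventh being Ctsf, against 8.09% of all promoters. The repeat of the interferon-stimulated response element, spelled as GAAA, 2 bases of any kind and GAAA again, was found on either strand in Atp6v1d and Ctso only, which is 2 of 31, against 3.99% of all promoters. A match is a description of the letters and not a sign that a factor binds there.

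**Figure D1:**
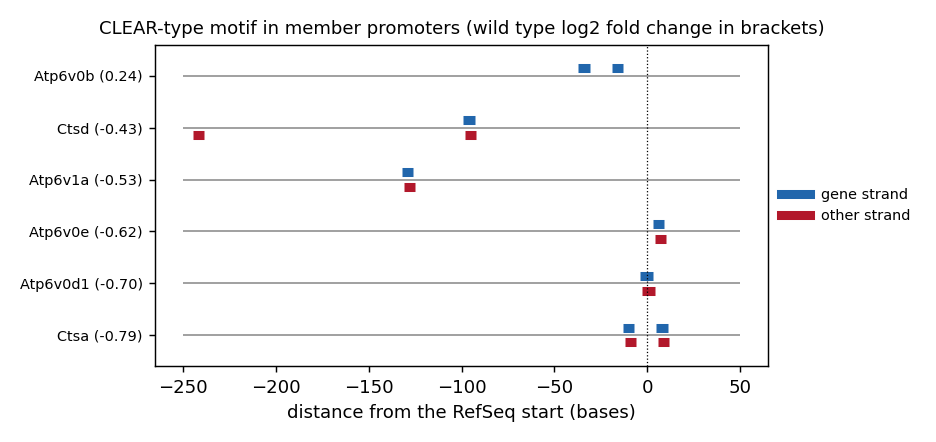
Position of TCACGTG in the promoter of each gene that holds it, as distance in bases from the RefSeq start site (dotted line), with matches on the strand of the gene in blue and on the other strand in red. Brackets give the log2 fold change of wild type cGAMP over wild type control, from 0.24 for Atp6v0b to -0.79 for Ctsa.

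Library totals ran between 26490593 and 31417833 counts, with 18556 to 19727 genes detected. Tmem173 RNA was at 82.8, 101 and 95.8 CPM (counts scaled to library size with TMM) in Tmem173-/- cGAMP libraries and at 80.2, 94.7 and 103 CPM in Tmem173-/- controls. In wild type cGAMP libraries the values were 44.6, 49.2 and 48.0 CPM, against 91.1, 102 and 92.6 CPM in wild type controls. Because the transcript was not lower in control cells labelled Tmem173-/-, its level does not show the genotype, and every statement on genotype rests on the labels. All 6 B cell markers were found in every library, summing to 3234 to 4001 CPM in wild type cGAMP libraries and to 4583 to 5556 CPM in wild type controls. Markers of T and NK cells summed to 17.7 CPM in the wild type cGAMP library numbered 1, and the neutrophil markers to 23.9 CPM. In the wild type control numbered 1 these sums were 7.97 and 9.36 CPM, so the calls of the wild type response lost without both libraries are given with each gene named. Mitochondrial transcripts took 1.19% to 1.32% of counts in wild type cGAMP libraries and 1.61% to 1.91% in wild type controls, and 1.75% to 2.26% in the Tmem173-/- libraries.

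Of the 42 genes, 27 passed the filter on low counts, 17 of the 26 V-ATPase family genes and 10 of the 16 cathepsins. The other 15 had few or no counts in these B cells. Among them, Atp6v0a4, Atp6v1e2, Ctsm and Ctsr had 0 counts in all 12 libraries. Atp6v0a4 is the kidney and inner ear isoform of V0 subunit a, Atp6v1e2 a testis isoform, and Ctsm and Ctsr belong to a cluster of placental cathepsins of rodents. The placental genes Ctsj and Ctsq had 5 counts and 1 count in all. Over the 12 libraries Atp6v0d2, the osteoclast and macrophage isoform of subunit d, had 7 counts, and Atp6v1b1, the kidney isoform of subunit B, had 4. Ctsg, the neutrophil granule protease, had 5 counts, and Ctsf had 2. Atp6v0e2 had 1 count, Atp6v1g3 and Atp6ap1l had 3 each, and Atp6v1fnb, a gene named for its place next to Atp6v1f, had 2. Atp6v1c2 had the most of the 15, with 28 counts, at a locus that overlaps Pdia6 on the opposite strand, which had 92516. No fold change is given for these 15 genes.

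Levels between genes were compared in the deposited FPKM, which divide by gene length. In wild type controls Ctsh, an aminopeptidase of the papain family, had the highest level at 323 ± 42.3 FPKM (SD, n = 3), followed by Ctsz, a carboxypeptidase also called cathepsin X, at 249 ± 29.3 FPKM. After cGAMP wild type cells had 175 ± 27.6 FPKM of Ctsh and 267 ± 36.1 FPKM of Ctsz, so the order of these genes was the other way round. Next in the controls came Atp6v1f, a subunit of the rotating shaft, at 191 ± 17.0 FPKM, Ctsc at 165 ± 5.13 FPKM, Atp6ap1 at 151 ± 6.12 FPKM and Ctsa at 149 ± 9.07 FPKM. Of these neighbours, Atp6ap1 and Ctsa differed by less than their SD. At the low end, Ctsd, a main aspartic protease of most tissues, had 20.7 ± 2.28 FPKM and its relative Ctse 9.67 ± 0.632 FPKM. Below 3 FPKM lay Atp6v1g2, the brain isoform of subunit G, at 1.97 ± 0.793 FPKM, Ctsw at 0.655 ± 0.187 FPKM and Ctsk at 0.130 ± 0.0910 FPKM.

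Several V-ATPase subunits have isoform genes, and in these cells nearly all subunits with isoforms were served by a single gene. Atp6v1g1 made up 96.3% ± 0.636 of the summed FPKM of the subunit G genes in wild type cGAMP cells and 97.4% ± 1.22 in wild type controls (SD, n = 3 each). Atp6v1c1 made up 99.8% ± 0.0657 of subunit C in wild type cGAMP cells and 99.9% ± 0.0548 in wild type controls. Subunit a, which anchors the pump to its membrane and sets where it goes, was the exception, with 3 genes at similar levels. Atp6v0a1, Atp6v0a2 and Tcirg1, the gene of isoform a3, held between 23.2% and 42.0% of the sum in every library. The share of Atp6v0a1 was 23.5%, 27.4% and 24.5% in wild type cGAMP libraries, against 34.9%, 35.1% and 35.0% in wild type controls. Thus the 3 treated libraries lay below the 3 controls. In Tmem173-/- cells its mean share was 35.8% ± 1.96 with cGAMP and 37.1% ± 1.20 without (SD, n = 3 each). Tcirg1 held 42.0% ± 0.0342 in wild type cGAMP cells and 37.0% ± 4.41 in wild type controls, and Atp6v0a2 held 32.8% ± 2.04 and 28.0% ± 4.48. Shares of 1 sum depend on each other, so no test was made of them.

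**Figure D2:**
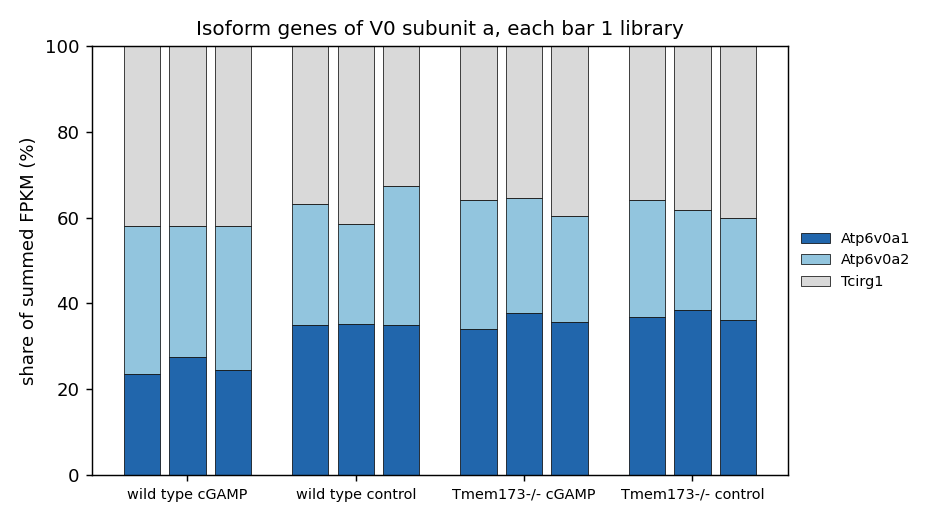
Share of each isoform gene in the summed FPKM of V0 subunit a (vertical axis, percent), with 1 bar for each library and the 4 groups from left to right. Atp6v0a1 held 23.5% to 27.4% in wild type cGAMP libraries and at least 33.9% in each of the other 9.

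The first comparison asked what cGAMP changed in wild type B cells. Cathepsin transcripts were mostly lower after cGAMP, V0 subunit genes changed in both directions, and most V1 subunit genes did not pass the test. Of the 27 genes tested, 13 fell and 3 rose at an edgeR adjusted p under 0.05. Among all 14473 genes tested, 25.4% fell and 22.4% rose, so the 48.1% of these genes that fell stood beside a background of about 1 gene in 4. With library totals alone the balance over all genes was the other way, with 3114 lower and 3688 higher. With TMM the median log2 fold change of the 27 genes was -0.22, beside -0.00 for all genes. All 3 libraries of a group lay on 1 side of the other group for 15 of the 27 genes, beside 54.4% of all genes. In bulk RNA, fewer cells of a type and less RNA in each cell cannot be told apart.

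Among the 10 cathepsins, 7 fell and 1 rose, with a median log2 fold change of -0.48. Ctse, an aspartic protease of the endosomes of immune cells, had 7.75, 8.88 and 6.55 CPM in wild type cGAMP libraries, against 17.0, 19.0 and 19.2 CPM in wild type controls. Every treated library lay well under every control. Ctse lies at chr1:131638306-131675505 on the plus strand of GRCm38, the build of all positions here, as the count table gives it. The log2 fold change was -1.25 (SE 0.14, edgeR adjusted p = 2.38e-06), the largest fall of the 27 genes. Ctsh had the highest mean FPKM of the 42 genes in wild type controls. It had 147, 198 and 161 CPM in wild type cGAMP libraries, against 273, 350.5 and 355 CPM in wild type controls. These groups, of a gene at chr9:90054152-90076089 on the plus strand, were also apart, by a log2 fold change of -0.95 (SE 0.12, edgeR adjusted p = 1.26e-05).

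Ctsb, a cysteine protease that cuts within chains and also removes dipeptides from their ends, had 124, 99.5 and 113 CPM in wild type cGAMP libraries, against 196, 175 and 217 CPM in wild type controls. The groups did not overlap, and the log2 fold change was -0.81 (SE 0.11, edgeR adjusted p = 1.54e-05). The Ctsb locus overlaps Fdft1 on the opposite strand, whose level ran the other way, at 56.4 ± 1.06 CPM in wild type cGAMP cells and 47.7 ± 5.34 CPM in wild type controls. Ctsa, the carboxypeptidase that protects lysosomal sialidase and beta-galactosidase, had 84.2, 79.8 and 81.2 CPM in wild type cGAMP libraries, against 142, 142 and 140.0 CPM in wild type controls. Its groups were far apart beside the small spread within each, and its log2 fold change was -0.79 (SE 0.07, edgeR adjusted p = 2.76e-07). The Ctsa locus overlaps Neurl2 and Pltp on the opposite strand, which took 1156 and 338 counts over the 12 libraries beside 42385 for Ctsa. Both were also lower with cGAMP. Neurl2 had 1.38 ± 0.349 CPM in wild type cGAMP cells and 4.51 ± 0.928 CPM in wild type controls. Pltp had 0.403 ± 0.0651 CPM in wild type cGAMP cells and 1.28 ± 0.310 CPM in wild type controls.

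Smaller falls were measured for Ctso, a cysteine protease whose substrates are little known, and for Ctsc, the dipeptidyl peptidase that activates the serine proteases of cytotoxic and myeloid granules. Ctso had 39.3, 53.0 and 42.6 CPM in wild type cGAMP libraries, against 57.3, 71.0 and 66.7 CPM in wild type controls, a log2 fold change of -0.53 (SE 0.11, edgeR adjusted p = 0.000823). Ctsc had 219, 186 and 211 CPM in wild type cGAMP libraries, against 257, 249.6 and 293 CPM in wild type controls, a log2 fold change of -0.37 (SE 0.09, edgeR adjusted p = 0.00248). In both genes the highest treated library lay under the lowest control. Ctsd had 22.8, 21.4 and 29.2 CPM in wild type cGAMP libraries, against 34.9, 27.7 and 36.2 CPM in wild type controls. Its groups overlapped, with the highest treated library above the lowest control, and the log2 fold change was -0.43 (SE 0.12, edgeR adjusted p = 0.00922). Without both wild type libraries numbered 1 the value for Ctsd was -0.34 and no longer passed (edgeR adjusted p = 0.104).

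Ctsw, a cathepsin known from cytotoxic T cells and NK cells, was the 1 cathepsin that rose, from a locus at chr19:5465240-5468498 on the minus strand. It had 74, 53 and 66 counts in wild type cGAMP libraries, against 30, 21 and 19 counts in wild type controls, which is 2.69, 1.82 and 2.35 CPM against 1.07, 0.739 and 0.671 CPM. The groups did not overlap, and the log2 fold change was 1.47 (SE 0.35, edgeR adjusted p = 0.00288). The 11 T and NK cell markers summed to between 0.413 and 17.7 CPM in wild type cGAMP libraries. In wild type controls they summed to between 2.39 and 7.97 CPM, and their part in the Ctsw values was not tested. Cd3e had 3.06, 0 and 0.0712 CPM in the treated libraries numbered 1 to 3, against 0.890, 0 and 0.0353 CPM in the controls. Gzmb had 1.02, 0.0688 and 0.0356 CPM in the treated libraries, against 0.0712, 0 and 0 CPM in the controls. Prf1 had 0.946, 0.0344 and 0.107 CPM in the treated libraries, against 0.570, 0.668 and 1.06 CPM in the controls. Without both wild type libraries numbered 1, where the marker sums were highest, the log2 fold change of Ctsw was 1.55 (edgeR adjusted p = 0.0151).

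Ctsz and Ctsk did not pass the test. Ctsz had 424, 324 and 384 CPM in wild type cGAMP libraries, against 397, 309.8 and 405 CPM in wild type controls, with a log2 fold change of 0.03 (95% interval -0.25 to 0.30, edgeR adjusted p = 0.89). Its sign turned negative without wild type cGAMP replicate 1, without wild type control replicate 2, or without both wild type libraries numbered 1. The Ctsz locus overlaps Nelfcd on the opposite strand, and 26011 counts were given to Nelfcd and 120933 to Ctsz over the 12 libraries. Ctsk, the collagen-cutting protease of osteoclasts, had 2 to 8 counts in wild type cGAMP libraries and 3 to 10 counts in wild type controls, too few to show a change.

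**Figure D3:**
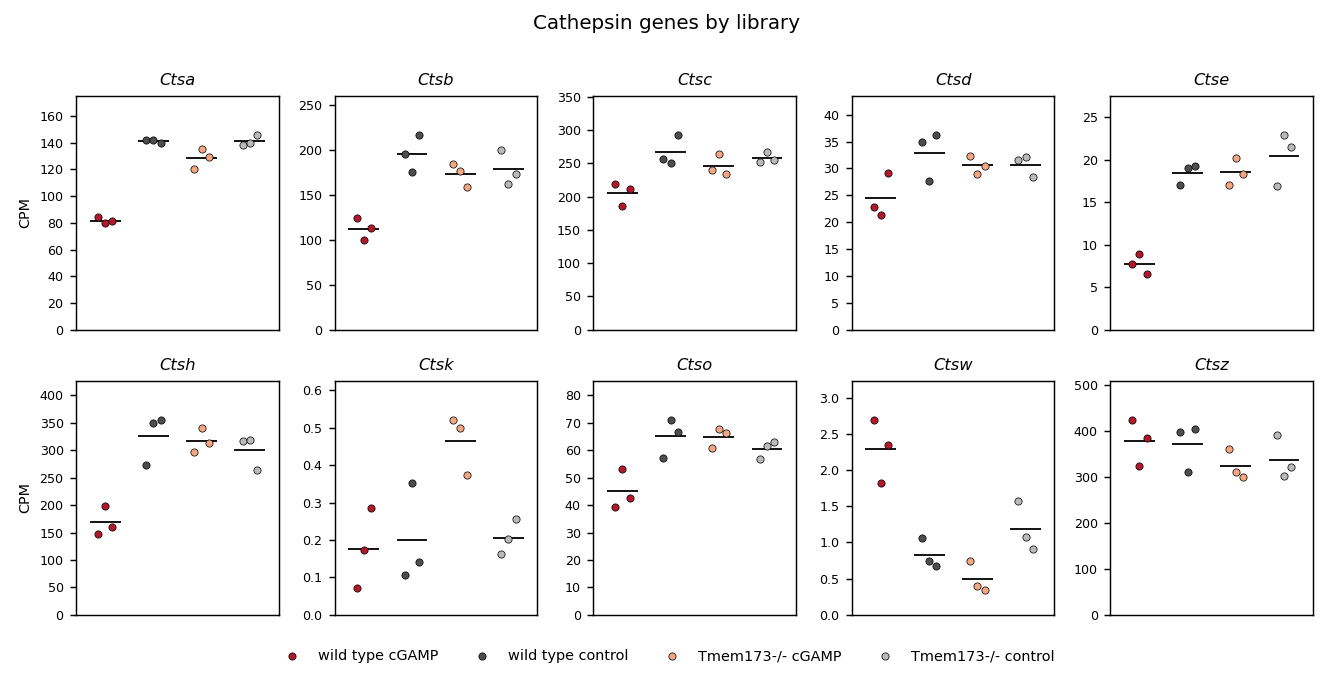
CPM after TMM scaling of the 10 cathepsin genes past the count filter (vertical axes, each starting at 0), with a point for each library and a bar for the mean of each group. In wild type cells the cGAMP points of Ctsa, Ctsb, Ctsc, Ctse, Ctsh and Ctso lie below the control points, and those of Ctsw lie above them.

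In the V0 sector 3 genes fell, 2 rose and Atp6v0b did not pass. Atp6v0d1 had 52.2, 46.8 and 56.8 CPM in wild type cGAMP libraries, against 83.8, 79.8 and 88.9 CPM in wild type controls. The groups were far apart, with a log2 fold change of -0.70 (SE 0.09, edgeR adjusted p = 6.92e-06). Atp6v0e, a small V0 subunit, had 97.4, 101 and 86.9 CPM in wild type cGAMP libraries, against 135, 130.3 and 172 CPM in wild type controls. Its controls spread more widely than its treated libraries without touching them, and the log2 fold change was -0.62 (SE 0.12, edgeR adjusted p = 0.000411). Atp6v0a1 had 51.4, 65.8 and 55.5 CPM in wild type cGAMP libraries, against 83.8, 95.5 and 71.2 CPM in wild type controls. The groups stayed apart, with a log2 fold change of -0.54 (SE 0.13, edgeR adjusted p = 0.00245).

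Atp6v0c, the proteolipid that forms most of the proton-carrying ring, moved the other way. The gene is at chr17:24163866-24169702 on the minus strand. It had 64.8, 68.5 and 75.6 CPM in wild type cGAMP libraries, against 46.0, 47.9 and 55.1 CPM in wild type controls. No treated library was as low as a control, and the log2 fold change was 0.49 (SE 0.09, edgeR adjusted p = 0.000278). A processed copy, Atp6v0c-ps2, took 224 counts over the 12 libraries beside 18630 for Atp6v0c. Atp6v0a2, the Golgi and endosome isoform of subunit a, had 69.3, 67.6 and 69.9 CPM in wild type cGAMP libraries, against 62.5, 58.6 and 60.6 CPM in wild type controls. The difference was small, a log2 fold change of 0.19 (SE 0.07, edgeR adjusted p = 0.0367), and the call was lost in 11 of 22 alternatives. It was lost without either number 1 or 3 of the wild type cGAMP libraries, without any 1 of the wild type controls, and without Tmem173-/- cGAMP replicates 1 or 3 or Tmem173-/- control replicate 3. It was also lost with no filter on low counts (edgeR adjusted p = 0.227), with only the compared groups in the fit (0.105) and without both wild type libraries numbered 1 (0.104). Atp6v0b, a further proteolipid of the ring, had 82.2, 108 and 97.1 CPM in wild type cGAMP libraries, against 77.0, 83.2 and 83.7 CPM in wild type controls, and its groups overlapped (log2 fold change 0.24, edgeR adjusted p = 0.173).

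Of the 9 V1 genes 2 fell, which is 22.2% and below the 25.4% of all genes that fell. They were Atp6v1a and Atp6v1b2, whose products form the ATP-hydrolysing head. Atp6v1a, the catalytic subunit, had 60.2, 53.5 and 60.2 CPM in wild type cGAMP libraries, against 87.4, 77.0 and 86.9 CPM in wild type controls. There was a wide gap between the groups, with a log2 fold change of -0.53 (SE 0.09, edgeR adjusted p = 0.000123). Atp6v1b2, its partner in the head, had 133, 119 and 136 CPM in wild type cGAMP libraries, against 158, 140.3 and 182 CPM in wild type controls. These groups came close without overlap, and the log2 fold change was -0.30 (SE 0.10, edgeR adjusted p = 0.0207). Leaving out replicate 2 of the treated wild type group ended that call (edgeR adjusted p = 0.0838), and so did leaving out wild type control replicate 3 (0.103) or both wild type libraries numbered 1 (0.0602).

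The stalk and shaft genes of V1 did not pass. Log2 fold changes of the stalk genes were 0.17 for Atp6v1c1 (95% interval -0.02 to 0.35), 0.03 for Atp6v1e1 (-0.16 to 0.22), -0.25 for Atp6v1g1 (-0.53 to 0.03), 0.34 for Atp6v1g2 (-0.26 to 0.93) and -0.06 for Atp6v1h (-0.30 to 0.17). For the shaft genes they were -0.21 for Atp6v1d (-0.43 to 0.02) and -0.22 for Atp6v1f (-0.54 to 0.10). Their edgeR adjusted p values lay between 0.119 and 0.805. Signs close to 0 were not stable, since Atp6v1h was at 0.01 with library totals alone, and Atp6v1c1 passed with that scaling at 0.24 (edgeR adjusted p = 0.0213). With replicate number within genotype as a block in the fit, Atp6v1d passed at -0.21 (edgeR adjusted p = 0.0227) and Atp6v1g1 at -0.24 (0.0467). Atp6v1g2 overlaps Nfkbil1 on the opposite strand, which took more counts than it did, 3476 beside 909.

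Both accessory genes that passed the filter are on chromosome X. Atp6ap1, the glycoprotein Ac45 that guides assembly of the pump, had 129.9, 132 and 149 CPM in wild type cGAMP libraries, against 154, 157 and 160.2 CPM in wild type controls. Its log2 fold change was -0.20 (SE 0.08, edgeR adjusted p = 0.0413), the weakest call of the 16, and it did not pass in 16 of 22 alternatives. These included library totals alone, at -0.13 (edgeR adjusted p = 0.191), and the fits without wild type cGAMP replicates 1 or 2, without any 1 of the wild type controls, without Tmem173-/- cGAMP replicates 2 or 3, and without Tmem173-/- control replicates 1 or 2. The call was also lost without both wild type libraries numbered 1 (edgeR adjusted p = 0.164). Atp6ap2, also known as the prorenin receptor, had 79.7, 69.2 and 84.7 CPM in wild type cGAMP libraries, against 87.2, 78.7 and 103 CPM in wild type controls, with overlapping groups (log2 fold change -0.20, edgeR adjusted p = 0.207). Atp6ap2 passed only with replicate number within genotype as a block (edgeR adjusted p = 0.0197).

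**Figure D4:**
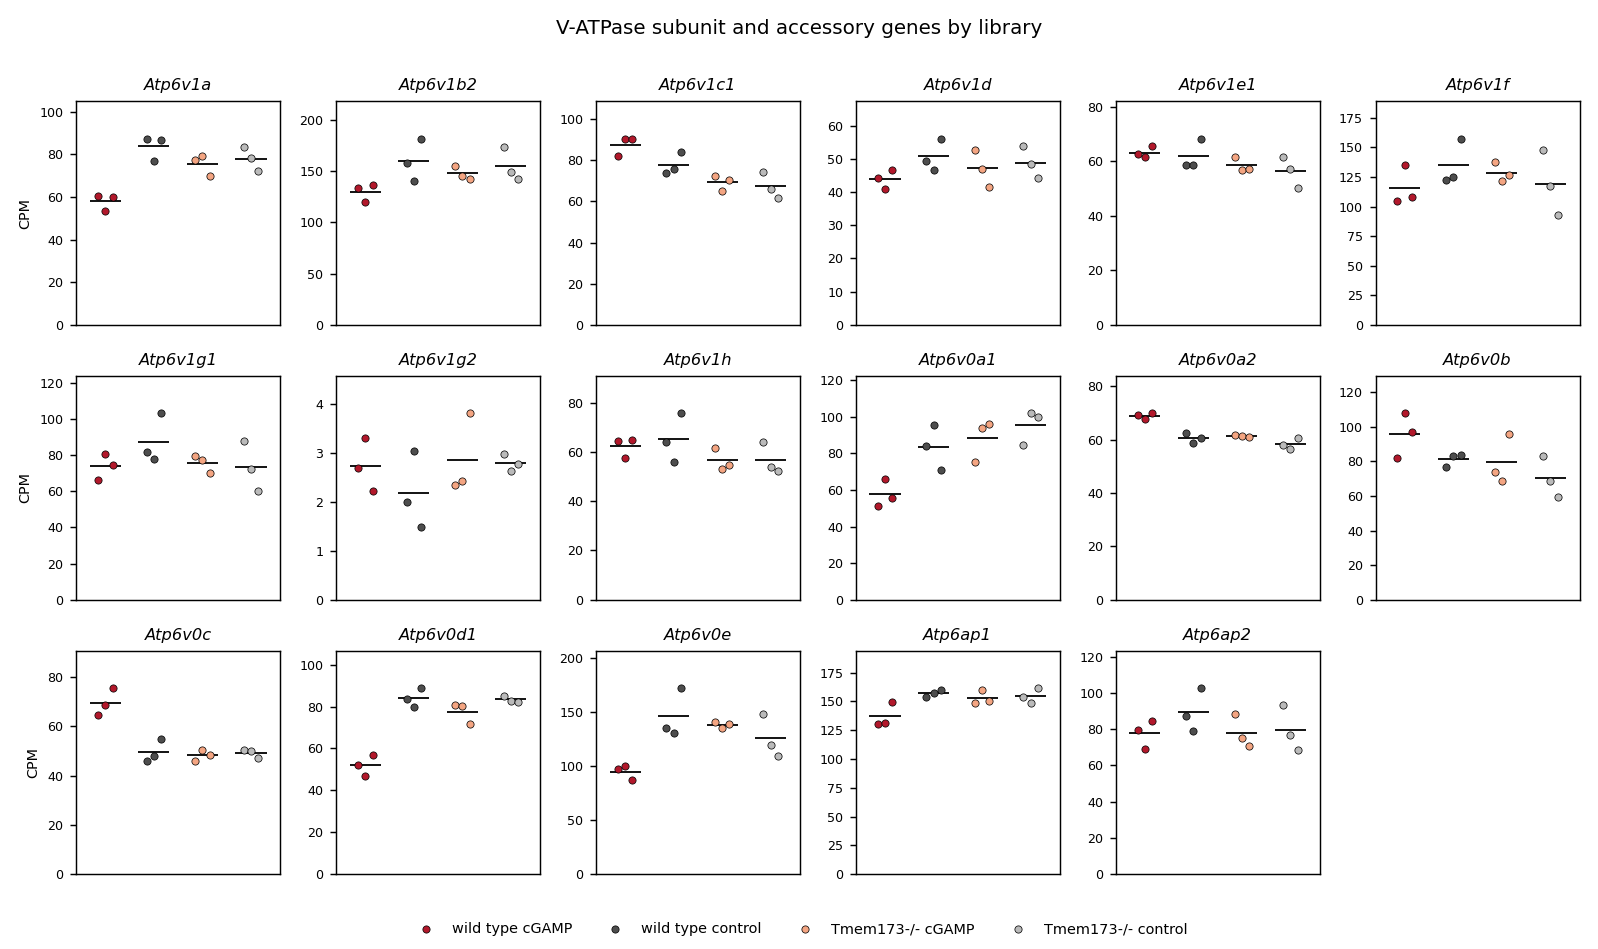
CPM after TMM scaling of the 17 V-ATPase subunit and accessory genes past the count filter (vertical axes, each starting at 0), with a point for each library and a bar for the mean of each group. In wild type cells the cGAMP points of Atp6v0d1, Atp6v0e, Atp6v0a1 and Atp6v1a lie below the control points and those of Atp6v0c above them.

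The V0 genes together summed to 417, 457 and 442 CPM in wild type cGAMP libraries, against 489, 495 and 532 CPM in wild type controls. The V1 genes summed to 621, 643 and 649 CPM in wild type cGAMP libraries, against 698, 661 and 815 CPM in wild type controls. The 16 cathepsins summed to 1071, 972 and 1031 CPM in wild type cGAMP libraries, against 1376, 1346 and 1532 CPM in wild type controls. In each of the 3 sums every treated library lay below every control, the cathepsins with the widest gap. Together the 42 genes took 0.232% to 0.239% of counts in wild type cGAMP libraries and 0.276% to 0.287% in wild type controls.

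Macrophages are rich in cathepsins, so markers of other cells were set beside these results. The 11 monocyte and macrophage markers summed to 6.69 to 14.5 CPM in wild type cGAMP libraries and to 30.9 to 42.8 CPM in wild type controls, and to 41.7 to 57.4 CPM in Tmem173-/- cGAMP libraries and 44.9 to 54.9 CPM in Tmem173-/- controls. Most of the control sum was Adgre1, at 4.26, 5.26 and 3.70 CPM in wild type cGAMP libraries, against 23.1, 38.0 and 31.4 CPM in wild type controls. Lyz2 was not lower with cGAMP, at 7.86, 7.54 and 1.96 CPM in wild type cGAMP libraries, against 6.30, 2.78 and 0.600 CPM in wild type controls, and Cd14 was at or under 0.791 CPM in all 6. Among the defining genes, Mertk was at 0 in every library but 1, where it had 0.0364 CPM, and C1qa, C1qb and C1qc were at most at 0.206 CPM. The 6 dendritic cell markers summed to 36.6 to 44.8 CPM in wild type cGAMP libraries and to 15.2 to 20.0 CPM in wild type controls. Zbtb46 and Flt3 made up nearly all of that sum, while Itgax and Xcr1 were not higher with cGAMP and Clec9a and Siglech were at or under 0.172 CPM in these 6 libraries. The part of these cells in the cathepsin values was not tested. With both wild type libraries numbered 1 left out, 10 of the 27 genes fell and 2 rose. Over all genes that fit had 3056 lower and 2487 higher, fewer than the 3683 and 3238 with all libraries. Those libraries stood out by T and NK cell and neutrophil markers, so that fit does not address the cells of this paragraph.

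The same treatment was then compared in Tmem173-/- cells. None of the 27 genes passed in Tmem173-/- cGAMP against Tmem173-/- control with edgeR, and neither did any other gene, so the background was 0%. Ctsw was the 1 gene of the 27 with an unadjusted p under 0.05, beside 203 of all genes, and neither DESeq2 nor limma-voom called any gene. With no filter on low counts edgeR called 10 genes higher and 13 lower, none of them among the 27. Groups did not overlap for 5 of the 27 genes, namely Atp6v0a2, Atp6v0d1, Ctsa, Ctsk and Ctsw, beside 6.64% of all genes. Ctsw had 20, 12 and 10 counts in Tmem173-/- cGAMP libraries, against 48, 32 and 25 counts in Tmem173-/- controls, the opposite order to wild type cells (log2 fold change -1.27, SE 0.38, edgeR adjusted p = 1). The T and NK cell markers summed to 1.86 to 2.86 CPM in Tmem173-/- cGAMP libraries and to 2.30 to 3.79 CPM in Tmem173-/- controls, and their part in these values was not tested.

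Values of the cathepsins that fell in wild type cells lay close together in Tmem173-/- cells. Ctse had 17.0, 20.3 and 18.3 CPM in Tmem173-/- cGAMP libraries, against 16.9, 22.9 and 21.5 CPM in Tmem173-/- controls, a log2 fold change of -0.14 (95% interval -0.42 to 0.14). Ctsh had 296, 341 and 314 CPM in Tmem173-/- cGAMP libraries, against 318, 319 and 264 CPM in Tmem173-/- controls, a log2 fold change of 0.08 (95% interval -0.18 to 0.34). In both genes the groups overlapped, and the intervals left out falls as large as those of wild type cells. Ctsb had 184, 177 and 158 CPM in Tmem173-/- cGAMP libraries, against 200.2, 162 and 174 CPM in Tmem173-/- controls, again with overlap. Ctsa had 120.2, 135 and 129 CPM in Tmem173-/- cGAMP libraries, against 138, 139 and 146 CPM in Tmem173-/- controls. Its treated libraries were all below the controls, with a log2 fold change of -0.14 (95% interval -0.29 to 0.01).

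The V-ATPase genes that changed in wild type cells were as close. Atp6v0d1 had 80.7, 80.3 and 71.7 CPM in Tmem173-/- cGAMP libraries, against 85.2, 82.8 and 82.4 CPM in Tmem173-/- controls. Those groups were just apart, with a log2 fold change of -0.11 (95% interval -0.29 to 0.07). Atp6v0e had 141, 135 and 139 CPM in Tmem173-/- cGAMP libraries, against 148, 119.6 and 109 CPM in Tmem173-/- controls, and the treated libraries lay inside the range of the controls. Atp6v0c had 45.9, 50.6 and 48.5 CPM in Tmem173-/- cGAMP libraries, against 50.4, 50.2 and 47.3 CPM in Tmem173-/- controls. Atp6v1a had 77.2, 79.3 and 69.8 CPM in Tmem173-/- cGAMP libraries, against 83.3, 78.4 and 72.3 CPM in Tmem173-/- controls. Both sets overlapped, and the log2 fold changes were -0.03 (95% interval -0.22 to 0.16) for Atp6v0c and -0.05 (-0.23 to 0.14) for Atp6v1a.

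**Figure D5:**
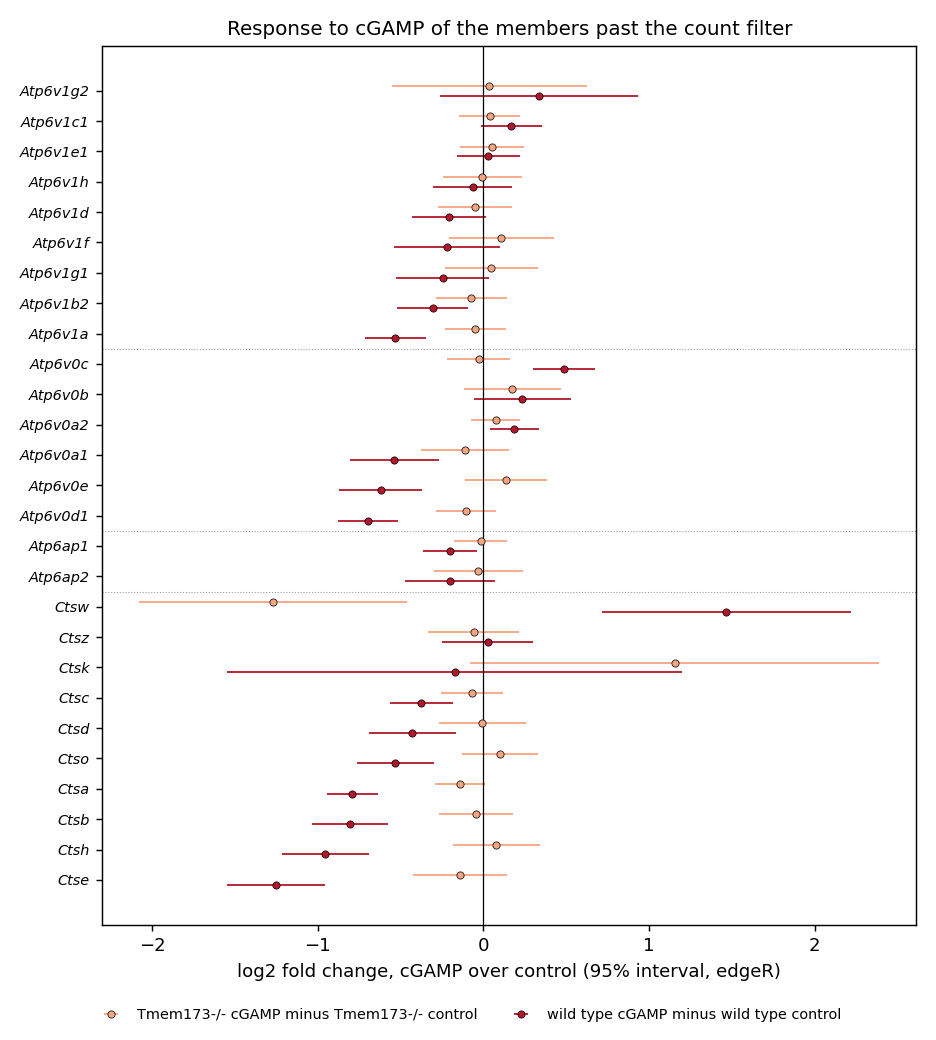
Log2 fold change of cGAMP over control with its 95% interval from edgeR (horizontal axis) for the 27 genes past the count filter, in Tmem173-/- cells (orange) and wild type cells (red), grouped from top to bottom as V1, V0, accessory and cathepsin genes. The wild type points range from -1.25 for Ctse to 1.47 for Ctsw, and the Tmem173-/- points other than those of Ctsk and Ctsw lie between -0.14 and 0.18.

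Whether the response differed between genotypes was tested as the Tmem173-/- response minus the wild type response. The difference was positive and past the threshold for 8 of the 27 genes, beside 17.5% of all genes, and negative for 2, beside 14.1%. The positive ones were Ctse at 1.11 (SE 0.19, edgeR adjusted p = 0.000436), Ctsh at 1.03 (SE 0.18, 0.000375), Ctsb at 0.76, Atp6v0e at 0.76, Ctsa at 0.65, Ctso at 0.63, Atp6v0d1 at 0.59 and Atp6v1a at 0.48, all on the log2 scale. Each of these 8 genes was lower after cGAMP in wild type cells. The negative ones were Atp6v0c at -0.52 (SE 0.13, edgeR adjusted p = 0.0051) and Ctsw at -2.73 (SE 0.52, edgeR adjusted p = 0.000921). Of the other genes called in wild type cells, Ctsc at 0.31, Ctsd at 0.42 and Atp6v0a1 at 0.43 came close without passing (edgeR adjusted p = 0.0746, 0.0763 and 0.0809). Atp6v1b2, Atp6v0a2 and Atp6ap1 had edgeR adjusted p values between 0.218 and 0.417, so a difference between genotypes was not shown for them.

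Between the genotypes without treatment, none of the 27 genes passed in Tmem173-/- control against wild type control with edgeR, and no other gene did, a background of 0%. Atp6v1c1 was the 1 gene of the 27 with an unadjusted p under 0.05, beside 921 of all genes, and DESeq2 called 4 genes and limma-voom 0, none of the 27 among them. With no filter on low counts edgeR called 32 genes higher and 119 lower. No gene of the 27 had groups that did not overlap, beside 9.09% of all genes. Tmem173-/- cGAMP against wild type cGAMP had 11 of the 27 genes higher and 3 lower, beside 24.9% and 23.5% of all genes. Groups did not overlap for 16 of the 27, beside 58.9% of all genes. This comparison shares its libraries with those above and is no separate evidence for the direction of these genes. Atp6v1c1, which did not pass in either response, was one of the 3 that were lower, at a log2 fold change of -0.34 (SE 0.09, edgeR adjusted p = 0.00419). It had 72.2, 65.2 and 70.4 CPM in Tmem173-/- cGAMP libraries, against 82.2, 90.3 and 90.6 CPM in wild type cGAMP libraries. In the same comparison Ctsd, at 0.32 (edgeR adjusted p = 0.041), and Ctsc, at 0.26 (edgeR adjusted p = 0.0234), were the least secure of the 11. The call for Ctsd was lost without any 1 of wild type cGAMP replicates 1 and 2, the 3 Tmem173-/- cGAMP libraries and Tmem173-/- control replicate 2. The same call was lost without both wild type libraries numbered 1 (edgeR adjusted p = 0.143) and with limma-trend on log2(FPKM + 1) (adjusted p = 0.0521). That for Ctsc was lost without replicate 2 of either cGAMP group.

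Promoter motifs were set beside the wild type response as a description. Of the 6 tested genes with TCACGTG, 5 fell and Atp6v0b did not pass, while 4 of the 12 tested genes with a promoter and without the motif fell. Among all tested genes with a promoter, 27.7% of those with the motif and 27.2% of those without it fell. The promoter table had no entry for Ctse, Ctsh, Ctsb and Atp6v1b2, which fell, or for Ctsw and Atp6v0a2, which rose. It also had none for Atp6v1c1, Atp6v1g1 and Atp6v1h, which did not pass.

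Lists of genes that work with the pump and cathepsins were counted beside the 25.4% of all genes that fell and the 22.4% that rose in wild type cells. Of 13 tested genes of V-ATPase partners, 4 fell and 1 rose, a share of falls close to that background, with a median log2 fold change of -0.05. Tmem199, an assembly factor of the V0 sector in the endoplasmic reticulum, had 43.4 ± 5.12 CPM in wild type cGAMP cells and 26.5 ± 0.863 CPM in wild type controls (log2 fold change 0.71, edgeR adjusted p = 0.000116). Rogdi, a subunit of the complex that reassembles V1 onto V0, had 22.7 ± 1.23 CPM in wild type cGAMP cells and 37.4 ± 1.65 CPM in wild type controls (-0.72, edgeR adjusted p = 2.51e-06). Oxr1 and Tldc1, of the family of TLDc proteins that bind the pump, fell by 0.72 and 0.97 on the log2 scale, and Ncoa7, of the same family, was at -0.23 (edgeR adjusted p = 0.0603). Wdr7, a partner of Rogdi, was at -0.35 (edgeR adjusted p = 0.0366). The call was lost without wild type cGAMP replicate 2, wild type control replicates 1 or 2, Tmem173-/- cGAMP replicate 2, or both wild type libraries numbered 1 (edgeR adjusted p = 0.0814). It was also lost with library totals alone (edgeR adjusted p = 0.106) and with only the compared groups in the fit (0.0555). Limma-trend did not call it on log2(FPKM + 1) (adjusted p = 0.202) or log2(FPKM + 0.1) (0.213). Tcirg1 was at 0.10 (edgeR adjusted p = 0.639), and at -0.08 without wild type control replicate 3.

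Inhibitors and other lysosomal proteases were counted next. Of 6 tested cathepsin inhibitor genes, 4 fell and none rose, with a median log2 fold change of -0.46. Cst3, the secreted inhibitor cystatin C, had 147 ± 11.6 CPM in wild type cGAMP cells and 198 ± 21.4 CPM in wild type controls (log2 fold change -0.43, edgeR adjusted p = 0.00271). Cstb, the cytosolic inhibitor stefin B, was at -0.68, and the serpin gene Serpinb6a at -0.49. The calls for Cstb and Serpinb6a were lost without wild type control replicate 3 or without both wild type libraries numbered 1, which left 2 of the 6. That for Serpinb6a was also lost without wild type cGAMP replicates 1 or 2 or wild type control replicate 2. Library totals alone ended it too (edgeR adjusted p = 0.0695), as did limma-trend on log2(FPKM + 1) (adjusted p = 0.0736) and log2(FPKM + 0.1) (0.0657). All 5 tested genes of other lysosomal proteases fell, with a median of -0.45. Prcp, a serine carboxypeptidase, had 47.9 ± 2.70 CPM in wild type cGAMP cells and 152 ± 11.8 CPM in wild type controls (log2 fold change -1.66, SE 0.09, edgeR adjusted p = 8.05e-10). Lgmn, the asparaginyl endopeptidase that trims cathepsins and antigens, fell by 0.97, Napsa, an aspartic protease, by 0.45 and Tpp1, a tripeptidyl peptidase, by 0.33 on the log2 scale.

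Genes of the other lysosomal hydrolases and their activators showed more falls than rises, 25 and 3 of 34, with a median log2 fold change of -0.57 beside -0.00 for all genes. Sgsh, a sulfatase of heparan sulfate breakdown, had 6.17 ± 1.22 CPM in wild type cGAMP cells and 26.4 ± 1.10 CPM in wild type controls (log2 fold change -2.09, edgeR adjusted p = 1.61e-08). Gm2a, an activator protein of ganglioside breakdown, fell by 1.65 and the acid lipase Lipa by 1.10 on the log2 scale. Galc, at 0.78, and Acp2, at 0.51, were among those that rose. Without both wild type libraries numbered 1 Galc (edgeR adjusted p = 0.0505) and Acp2 (edgeR adjusted p = 0.215) did not pass, which left 1. The Acp2 call was also lost without any 1 of wild type cGAMP replicates 1 and 3 and wild type control replicates 1 and 3, with edgeR adjusted p between 0.0902 and 0.126. It did not pass with no filter on low counts (edgeR adjusted p = 0.0599) or with only the compared groups in the fit (0.0504).

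Of 23 genes of lysosomal membrane proteins, 9 fell and 4 rose, beside 25.4% and 22.4% of all genes, with a median of -0.04. Tpcn1, an endolysosomal cation channel, fell by 1.20, Scarb2, the receptor that carries glucocerebrosidase to lysosomes, by 0.86, and the transporters Slc15a4 and Slc17a5 by 0.72 and 0.64 on the log2 scale. Clcn7, the chloride and proton exchanger of lysosomes, rose by 0.59, the calcium channel gene Mcoln1 by 0.55, Slc15a3 by 0.44 and Tpcn2 by 0.43. The Tpcn2 call was lost without replicate 2 of the treated wild type group (edgeR adjusted p = 0.0593) or wild type control replicate 3 (edgeR adjusted p = 0.0853). It was also lost when both wild type libraries numbered 1 were left out (edgeR adjusted p = 0.0574). Lamp1, the most used lysosomal membrane marker, had 219.7 ± 12.0 CPM in wild type cGAMP cells and 222 ± 31.5 CPM in wild type controls, a log2 fold change of -0.01 (edgeR adjusted p = 0.926) that was at 0.06 with library totals alone (edgeR adjusted p = 0.621).

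Regulators and sorting factors were examined last. Tfeb itself had 35.2, 32.2 and 37.0 CPM in wild type cGAMP libraries, against 73.4, 73.4 and 68.8 CPM in wild type controls. The groups were far apart, with a log2 fold change of -1.05 (SE 0.08, edgeR adjusted p = 3.46e-08), while Tmem173-/- cells had 72.1 ± 1.21 CPM with cGAMP and 76.4 ± 3.25 CPM without. Of 15 tested genes of the TFEB family and the complex that docks mTORC1 on lysosomes, 4 fell and 1 rose, about the background share of falls (25.4%), with a median of -0.20. Lamtor2, Rraga and Lamtor1, of that docking complex, fell by 0.75, 0.70 and 0.42 on the log2 scale, and Lamtor3 rose by 0.32. The Lamtor3 call was lost without replicate 2 of the treated wild type group (edgeR adjusted p = 0.0628) or wild type control replicate 1 (edgeR adjusted p = 0.0747). Leaving out both wild type libraries numbered 1 ended it too (edgeR adjusted p = 0.0594). Of 12 genes that tag hydrolases with mannose 6-phosphate and sort them, 4 rose and none fell with edgeR, with a median of -0.01, and 1 fell with no filter on low counts. M6pr, the smaller of the receptors for that tag, had 460.3 ± 18.3 CPM in wild type cGAMP cells and 333 ± 42.9 CPM in wild type controls (log2 fold change 0.47, edgeR adjusted p = 0.00181). Gga3, an adaptor for these receptors, rose by 0.60 and Gnptg, a subunit of the tagging enzyme, by 0.52.

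In Tmem173-/- cells no gene of these 7 lists passed in either direction, which follows from the absence of any called gene in that comparison. The difference between the responses passed for 22 hydrolase genes upward and 2 downward of 34, and for 4 of the 5 other proteases upward, beside 17.5% of all genes upward and 14.1% downward. It also passed for Tfeb at 0.96 (edgeR adjusted p = 9.51e-06), for Prcp at 1.63 (edgeR adjusted p = 1.39e-07), and for M6pr at -0.48 (edgeR adjusted p = 0.0224).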

How the data were processed

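RNA of 12 libraries was measured by poly-A sequencing. The submitters' processing notes name fastp for trimming, STAR for alignment, featureCounts for counting and GRCm38 (mm10) as the build, and the authors deposited raw counts per gene. The authors also deposited FPKM, which are counts scaled to library size and to a length for each gene, and a gene length in bases that was not used for any value. Versions, strandedness and annotation release are not given in the sources used here, so reads of genes that overlap on opposite strands may have been shared.

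Counts of all 12 libraries were fitted together by group with edgeR 4.0.16 in R 4.3.3, using filterByExpr by group, TMM scaling and the robust quasi-likelihood test, which was tested on simulated data. For each of the 5 contrasts the p-values of 14473 genes were adjusted by the Benjamini-Hochberg method, and an adjusted p under 0.05 was called. CPM after TMM served for values of 1 gene across libraries, and the deposited FPKM for levels between genes. Library totals of 26490593 to 31417833 counts set the precision, and genes with few counts have the widest intervals. Alternatives were 2 other scalings, no filter, DESeq2 1.42.0, limma-voom and limma-trend (limma 3.58.1) on log2(FPKM + 1) and log2(FPKM + 0.1), only the compared groups, replicate number as a block, each library left out, and both wild type libraries numbered 1 left out. The block across genotypes was added after seeing the data.

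The genes and the pathway lists were chosen with earlier results of these data known. Every gene of the pump and cathepsin families is accounted for. Of each pathway list, up to 4 called genes in each direction with the largest change and at least 5 CPM in the higher group were named, and a few regulators and markers besides. Some genes that this rule names are not reported here.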

Additional observations from a re-analysis of the deposited data

Results flagged for a closer look

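The cGAMP response differed between genotypes for 10 of the 27 genes, which is 37%, beside 31.6% of all 14473 genes tested. It was tested as the Tmem173-/- response minus the wild type response on the log2 scale with edgeR. The difference was 1.11 for Ctse, 1.03 for Ctsh, 0.76 for Ctsb, 0.65 for Ctsa and 0.63 for Ctso. For the pump genes it was 0.76 for Atp6v0e, 0.59 for Atp6v0d1, 0.48 for Atp6v1a and -0.52 for Atp6v0c. Ctsw had the largest difference in size, -2.73, at 10 to 20 counts in Tmem173-/- cGAMP libraries and 25 to 48 counts in Tmem173-/- controls. The edgeR adjusted p values ran from 0.000171 for Ctsa to 0.00741 for Atp6v1a, and none of the 10 calls was lost under any alternative run.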

How the results depend on the processing

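Counts of called genes among the 27 stayed within 1.5 times their value under every alternative run, while some counts of the pathway lists did not. In wild type cells, 11 to 13 genes fell and 2 to 3 rose with any 1 library left out, and 10 to 16 fell and 2 to 4 rose under the other alternatives. The least secure wild type calls were Atp6ap1, lost in 16 of 22 alternatives, Atp6v0a2, lost in 11, Atp6v1b2, lost in 3, and Ctsd, lost in 1. Fold changes close to 0 turned sign, and the cause was not tested. With 1 library left out, Atp6v1e1 ran from -0.0132 to 0.102, Atp6v1h from -0.171 to 0.0494, Ctsz from -0.0938 to 0.122, Ctsk from -0.685 to 0.491, Lamp1 from -0.128 to 0.0713 and Tcirg1 from -0.0770 to 0.301. Without both wild type libraries numbered 1, Atp6v1e1 was at -0.00503, Ctsz at -0.0184 and Lamp1 at 0.00321. Atp6v1h was at 0.0106 with library totals alone, 0.0131 on log2(FPKM + 1) and 0.0136 on log2(FPKM + 0.1), and Lamp1 at 0.0600, 0.0635 and 0.0639. Lamp1 was at 0.00431 with median-of-ratios size factors and 0.0043 with DESeq2. In wild type cells the sorting list, with 0 genes lower, had 1 lower with no filter and with the block. The list of regulators, with 1 gene higher, had 0 to 2 higher under the alternatives, and that of V-ATPase partners, with 1 higher, had 2 in 5 of them. Inhibitors, with 4 lower, had 2 lower on log2(FPKM + 1), without wild type control replicate 3 and without both wild type libraries numbered 1, and hydrolases, with 3 higher, had 1 without those numbered 1.

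The labels do not say that equal replicate numbers mark a shared mouse or day. Deviations of log2 CPM from the group mean were therefore correlated between the cGAMP and control libraries of a genotype, over all tested genes. For same-numbered libraries these deviations correlated at 0.083 to 0.30 in wild type and at 0.096 to 0.288 in Tmem173-/- cells. Not all were above 0.1, so the libraries were not treated as paired. The deviations of every library correlated best with those of its own number, which is a hint from the data and not from the design. With the replicate block within genotype, 16 genes of the pump and cathepsin families fell and 3 rose in wild type cells. In Tmem173-/- cells 0 passed. Calls over all tested genes rose as well in wild type cells, to 4050 lower and 3699 higher, from 3683 and 3238 without the block. The difference between responses then passed for 11 genes of these families upward and 2 downward. Over all tested genes it passed for 3034 upward and 2626 downward, against 2532 and 2037 without the block. The larger counts for these families are thus part of a gain over all genes. With the block across genotypes, 11 genes of these families were higher and 3 lower in Tmem173-/- cGAMP against wild type cGAMP. Between the controls 0 passed.

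With the promoter window cut to 100 bases before the start, TCACGTG was found in 27.8% of the tested genes of the pump and cathepsin families. In that window 5.20% of all tested genes with a promoter held it. Depth limits Ctsk and Ctsw most, at 2 to 15 and 10 to 74 counts in a library.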
